A study of Arabidopsis thaliana with 8 samples.

Results

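The genes described here are the serine carboxypeptidase-like (SCPL) genes of Arabidopsis thaliana that the arrays measured through a probe set of their own. All probe sets that the platform's gene table assigns to exactly 1 symbol of the form SCPL and a number were taken, with SCPL48 left out. This gave 28 probe sets for 28 genes, out of 22746 probe sets that were not controls, and no gene had more than 1. The members were SCPL16, SCPL18, SCPL20 to SCPL23, SCPL25 to SCPL35, SCPL38, SCPL40 to SCPL47, SCPL49 and SCPL50. RefSeq names 51 SCPL genes, of which 29 had such a probe set, 3 shared a probe set with another gene (SCPL36, SCPL37 and SCPL39) and 19 had none listed.

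The 8 Affymetrix arrays formed 4 groups of 2, all of the Col-0 ecotype. ORE1, a transcription factor of the NAC family, drives leaf senescence, and the study looked for genes that respond early when it is raised. Whole seedlings 2 weeks old carried ORE1-IOE, a construct through which estradiol induces ORE1, and received 10 µM estradiol or, as mock treatment, 0.1% ethanol; both groups were labelled 2 h. Mesophyll cell protoplasts, which are leaf cells freed of their walls, came from plants 5 weeks old and either expressed 35S:ORE1 transiently for 6 h or were labelled WT, with no harvest time given. The 35S promoter drives strong expression in most plant cells. Whether the WT protoplasts were mock-transfected is not given in the sources used here, so an effect of ORE1 and one of transfection or culture cannot be told apart in that comparison. Nor do the labels say whether replicates are separate plants or preparations, so the p-values here measure the spread between arrays, which could be technical. In bulk samples such as these, fewer cells of a type and less RNA per cell cannot be told apart.

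Serine carboxypeptidases cut single amino acids from the carboxyl end of proteins by means of an active-site serine. Plant genomes hold a large family of related proteins, many of them vacuolar or secreted, and breakdown of proteins in the vacuole feeds the recycling of nitrogen from senescing leaves. Some family members have lost peptidase activity and work as acyltransferases that move an acyl group from a glucose ester to another molecule. The best known of these make sinapate esters: SCPL8, also called SNG1, makes sinapoylmalate, a sunscreen of leaves, and SCPL19, also called SNG2, makes sinapoylcholine in seeds. Both belong to the numbers 1 to 19, for which 17 of 19 genes had no listed probe set, so the family's known acyltransferases were not analysed here. SCPL24, known as BRS1 from its effect on a brassinosteroid receptor mutant, was not analysed here either. Of the members, 2 carry numbers of 1 to 19 (SCPL16 and SCPL18) and 26 carry numbers of 20 or more. SCPL49 is named carboxypeptidase Y by RefSeq, after the vacuolar enzyme of yeast.

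Values are deposited log2 expression values, so that a difference of 1 is a doubling. They depend on each probe set's own response and do not compare the amounts of transcript of different genes. Array medians were 6.71 to 6.79 in seedlings and 3.34 to 3.54 in protoplasts, and the lowest values were 3.25 to 3.35 in seedlings and 2.18 to 2.19 in protoplasts. The systems therefore lie on different scales. Of the 28 members, 19 had values of log2 5 or more on 2 or more arrays and were tested, as part of the 17388 probe sets that met this filter. All 19 would have passed on the seedling arrays alone, so none entered through a rise in protoplasts. The tissue labels were set against marker genes: the mesophyll genes RCA (8.86 and 9.09 with 35S:ORE1, 9.39 and 9.41 in WT) and LHCB4.1 (7.90 and 7.75, against 8.15 and 8.16) lay well above the lowest value in protoplasts. The third measured mesophyll gene, LHCB4.2, lay under log2 5 on all 4 protoplast arrays, at 4.22 and 3.32 with 35S:ORE1 and 4.44 and 4.32 in WT. The root and root hair genes EXPA7, EXPA18 and PYK10 and the stomatal lineage gene FAMA lay within 0.1 of the lowest value on all 4 protoplast arrays. In the whole seedlings, PYK10 lay at 12.04 and 11.87 with estradiol and 11.90 and 12.29 with mock treatment.

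**Figure D1:**
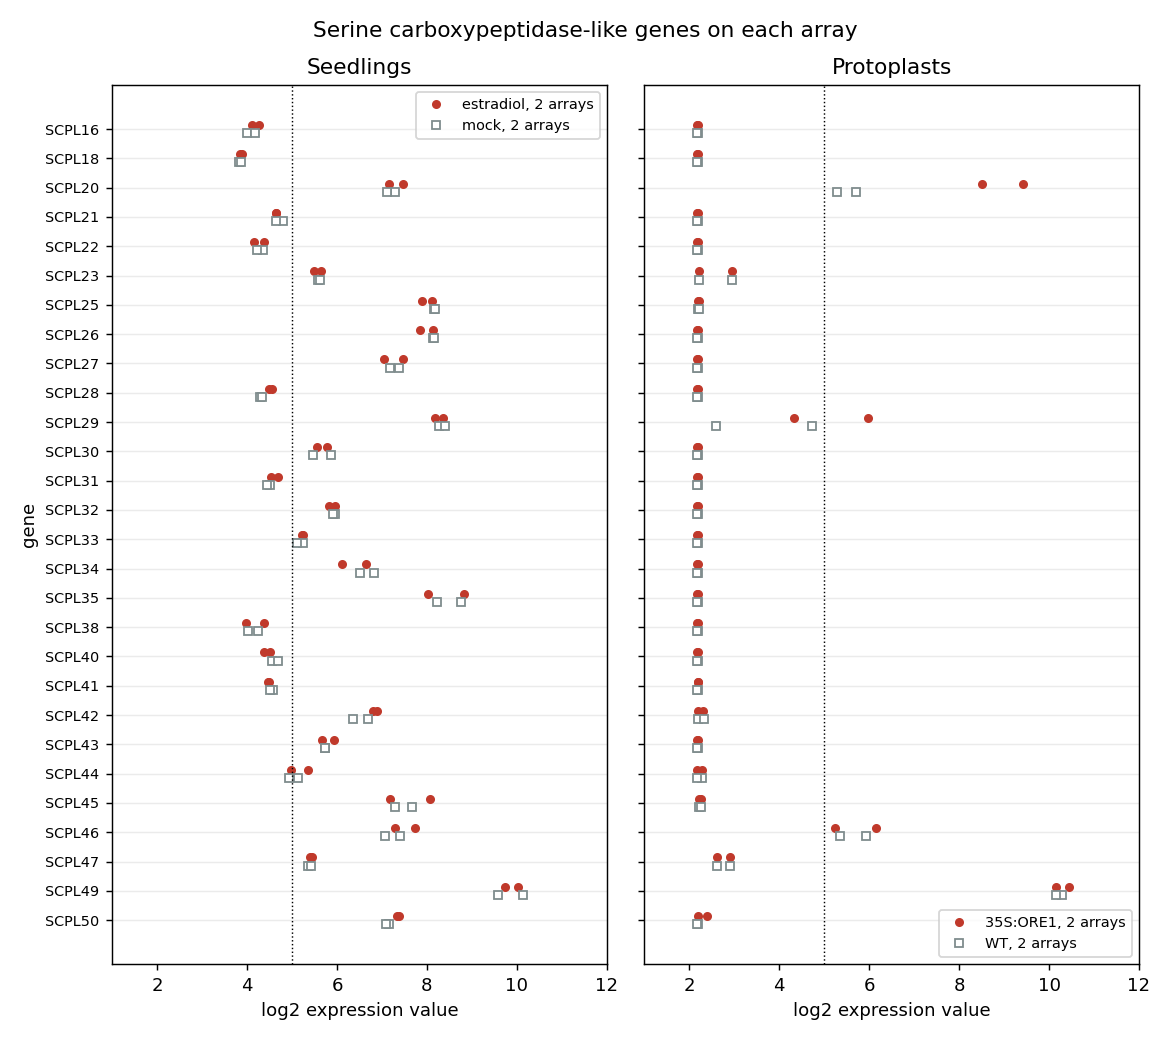
The log2 expression value (x axis) of the 28 serine carboxypeptidase-like genes (y axis, by number) on each array, with seedlings in the left panel (filled circles estradiol, open squares mock) and protoplasts in the right panel (filled circles 35S:ORE1, open squares WT); the dotted line marks log2 5, and the panels lie on different scales. In protoplasts 20 genes sit within 0.1 of the lowest value on all 4 arrays, and SCPL20 is the gene whose 35S:ORE1 circles, at 9.43 and 8.52, lie clear of its WT squares, at 5.72 and 5.29.

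In protoplasts most of the family gave no signal above the lowest value and 1 member rose. SCPL20 rose 11.1-fold with 35S:ORE1, SCPL29 had a higher mean without passing the test, SCPL46 and SCPL49 gave signal in both groups with differences under 0.1, and the others lay at or near the lowest value. Of the 19 tested members 1 rose and 0 fell, or 5.26%, where 3.00% of all tested probe sets rose and 0.771% fell (limma, adjusted p under 0.05). At an unadjusted p under 0.05 the count was also 1 of 19, against 12.2% of all tested probe sets. The median change was 0 over the tested members and 0 over all tested probe sets.

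SCPL20 (AT4G12910) had log2 values of 9.43 and 8.52 in the 35S:ORE1 protoplasts, against 5.72 and 5.29 in WT. Both values with 35S:ORE1 lay above both in WT, as they did for 10.8% of all tested probe sets and no other tested member. The WT values lay more than 3 above the lowest value of their arrays, so the change is measured on both sides. The group means were 8.97 ± 0.64 with 35S:ORE1 and 5.50 ± 0.30 in WT (SD, n = 2 arrays each). The change was 3.47 ± 0.32 (SE; limma adjusted p = 0.00248), with a 95% interval of 2.70 to 4.24, or 6.49-fold to 18.9-fold. It was 3.71 within the arrays numbered 1 and 3.23 within those numbered 2. In rank terms, SCPL20 stood at the 88.6th and 81.5th percentile of all probe sets on the 35S:ORE1 arrays and at the 60.7th and 58.3rd on the WT arrays.

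The spread behind this test comes from all 8 arrays. Fitted on the 4 protoplast arrays by themselves, the change of SCPL20 had an SE of 0.42 and did not pass (adjusted p = 0.146). Same-numbered protoplast arrays may share a processing batch, and in a limma fit blocked on that number the adjusted p was 0.00726.

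SCPL29 (AT4G30810) lay at 5.98 and 4.34 with 35S:ORE1, against 4.72 and 2.60 in WT. Of these values 5.98 alone reached log2 5, and 2.60 lay near the lowest value. The groups overlapped, since the lower value with 35S:ORE1 was below the higher one in WT. The change was 1.50 ± 0.77 (SE; limma adjusted p = 0.611), with a 95% interval of -0.36 to 3.36. The arrays numbered 1 lay above those numbered 2 by 1.88 on average, more than the change itself, and within the numbers the change was 1.26 and 1.74. SCPL20 and SCPL29 were the 2 tested members with at least a 2-fold rise within both numbers, a criterion without a test that 3.00% of all tested probe sets met. With the replicate number as a block SCPL29 passed (adjusted p = 0.0272), in a fit that called 7.72% of all tested probe sets. The change within number 2, and with it the blocked fit, rests in part on the WT value of 2.60.

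**Figure D2:**
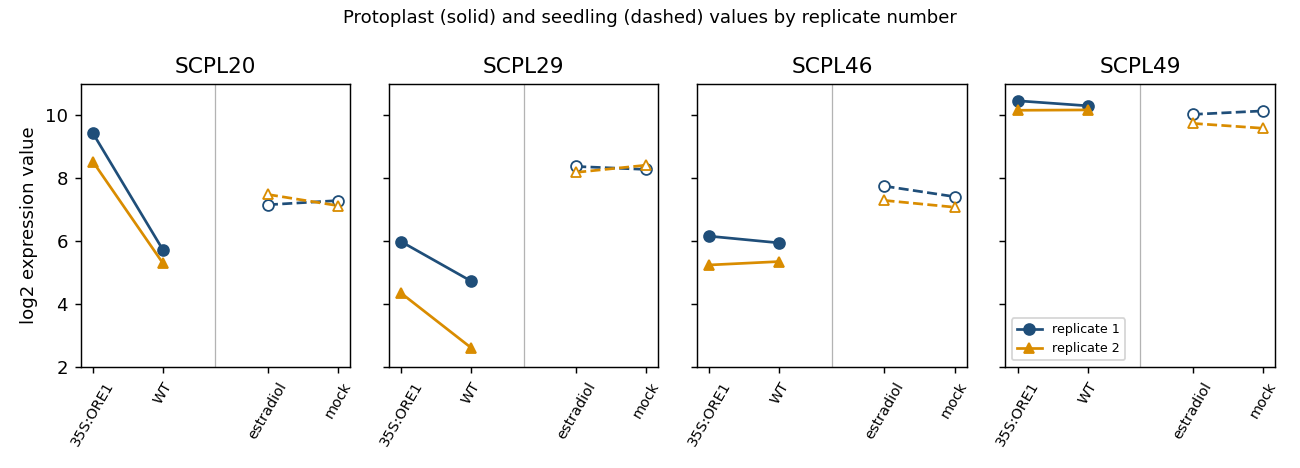
Log2 expression values (y axis) of the 4 genes with at least 1 protoplast array at log2 5 or more, by group (x axis); solid lines join the same-numbered protoplast arrays and dashed lines the same-numbered seedling arrays, which lie on another scale. The lines of SCPL20 and SCPL29 lie higher at 35S:ORE1 than at WT for both replicate numbers (3.71 and 3.23 for SCPL20, 1.26 and 1.74 for SCPL29), whereas those of SCPL46 and SCPL49 are nearly level.

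SCPL49 (AT3G10410), the carboxypeptidase Y gene, lay at 10.45 and 10.15 with 35S:ORE1, against 10.29 and 10.16 in WT. The values overlapped, and the change was 0.074 ± 0.22 (SE, limma; 95% interval -0.47 to 0.62). On each protoplast array it stood between the 91.7th and the 93.6th percentile of all probe sets. SCPL46 (AT2G33530) had values of 6.15 and 5.24 with 35S:ORE1, against 5.94 and 5.34 in WT. Here too the groups overlapped, with a change of 0.052 ± 0.36 (95% interval -0.82 to 0.93). These intervals run from 0.72-fold to 1.53-fold in SCPL49 and from 0.56-fold to 1.90-fold in SCPL46, so they leave room for a fall as well as a rise. The sign of both small changes depended on scaling: centring each array on its median moved every protoplast change by -0.17, to -0.098 in SCPL49 and -0.12 in SCPL46.

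The other 24 members gave little or no signal in protoplasts. On all 4 arrays 20 of the 28 members lay within 0.1 of the lowest value, or 71.4%, against 36.2% of all probe sets. Among tested ones it was 11 of 19, or 57.9%, against 21.6%. SCPL23 lay at 2.23 and 2.94 with 35S:ORE1 and at the same values in WT, and SCPL47, at 2.91 and 2.61 in either group, was likewise identical within each number. SCPL50 lay at 2.19 and 2.40 with 35S:ORE1, against 2.19 and 2.18 in WT. SCPL42 lay between 2.21 and 2.32 on all 4 arrays, and both genes differed in number 2 alone, SCPL42 by -0.020 and SCPL50 by 0.22. In all, 21 of the 28 members had exactly equal deposited values with 35S:ORE1 and in WT within both numbers, 13 of them tested, where 29.9% of all tested probe sets did. Near the lowest value a fall or a small change cannot be measured, so a lack of difference there does not show that these transcripts were unaffected. A rise well above the lowest value could have shown, and none was seen in these 24 members.

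Several of these genes gave clear signal in seedlings. The level of log2 7 used next was chosen after the values were seen. Mock-treated seedlings had a mean of at least 7 for 10 members: SCPL20, SCPL25, SCPL26, SCPL27, SCPL29, SCPL35, SCPL45, SCPL46, SCPL49 and SCPL50. Of the 10, 5 lay within 0.1 of the lowest value on all 4 protoplast arrays, namely SCPL25, SCPL26, SCPL27, SCPL35 and SCPL45, and SCPL50 did so on 3 arrays. Of all 10537 probe sets at that level in mock-treated seedlings, 6.73% lay there. SCPL35 (AT5G08260), for example, read 8.83 and 8.01 with estradiol and 8.76 and 8.22 with mock treatment, but 2.19 and 2.18 in protoplasts of either kind. Tissue and age differ between the systems, as does the scale of the values, and cannot be told apart here.

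In seedlings no member changed by the test. Of the 19 tested members 0 passed in limma, and 0 had an unadjusted p under 0.05 in that fit. By adjusted p, 0 were called in the fits with the replicate number as a block, with a trend in the spread or on the seedling arrays alone. The background was low, with 0.00575% of all tested probe sets called and 4.13% at an unadjusted p under 0.05. The changes lay between -0.30 and 0.31 on the log2 scale, with a median of 0.021 over the tested members and 0.018 over all tested probe sets. Higher means with estradiol were seen for 11 members and lower means for 8.

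For 17 of the 19 the 95% interval from the fit to all 8 arrays lay inside a 2-fold change in either direction. The exceptions were SCPL46 (AT2G33530), at 7.74 and 7.29 with estradiol and 7.41 and 7.07 with mock treatment (0.27 ± 0.36, SE; 95% interval -0.60 to 1.15), and SCPL29. The seedling values of SCPL29 were close, at 8.37 and 8.18 with estradiol, against 8.27 and 8.41 with mock treatment. Its interval of -1.93 to 1.79 is wide because the fit pools the spread with the protoplast arrays, and on the seedling arrays alone it was -0.44 to 0.30. In that fit the interval of SCPL46 was -0.31 to 0.86, and SCPL45 was the 1 tested member whose interval reached past 2-fold (-0.76 to 1.05). Pooling also narrowed intervals. The 11 tested members within 0.1 of the lowest value on all 4 protoplast arrays had smaller seedling SEs in the fit to all 8 arrays. In SCPL35, for example, the SE was 0.29, against 0.34 on the seedling arrays alone.

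The members with the largest seedling differences relative to their error were SCPL42, SCPL50, SCPL34 and SCPL25. SCPL42 (AT5G42240) lay at 6.88 and 6.79 with estradiol, against 6.69 and 6.36 with mock treatment, a change of 0.31 ± 0.15 (SE; limma adjusted p = 1). SCPL50 (AT1G15000) lay at 7.39 and 7.33, against 7.15 and 7.08 with mock treatment (0.24 ± 0.12), and both genes had higher values on both estradiol arrays. SCPL25 (AT3G02110) was lower on both, at 8.12 and 7.88 with estradiol, against 8.16 and 8.17 with mock treatment (-0.17 ± 0.12). Groups did not overlap for these 3 of 19 members, or 15.8%, against 32.5% of all tested probe sets. SCPL34 (AT5G23210) overlapped, at 6.64 and 6.10, against 6.83 and 6.51 with mock treatment (-0.30 ± 0.21), and was lower with estradiol within both replicate numbers, with differences of -0.20 and -0.41 (limma adjusted p = 0.234 when blocked on the number).

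SCPL26, SCPL44, SCPL46 (values above) and SCPL43 came next. The differences were -0.16 ± 0.13 for SCPL26, 0.13 ± 0.16 for SCPL44 and 0.07 ± 0.13 for SCPL43, and the groups of all 4 genes overlapped. SCPL26 (AT2G35780) read 8.14 and 7.83 with estradiol, against 8.13 and 8.17 with mock treatment. SCPL44 (AT1G43780) lay near the filter, at 4.98 and 5.36 with estradiol, against 5.14 and 4.94 with mock treatment, and SCPL43 (AT2G12480) at 5.66 and 5.94, against 5.72 and 5.74. None of these differences passed the test.

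**Figure D3:**
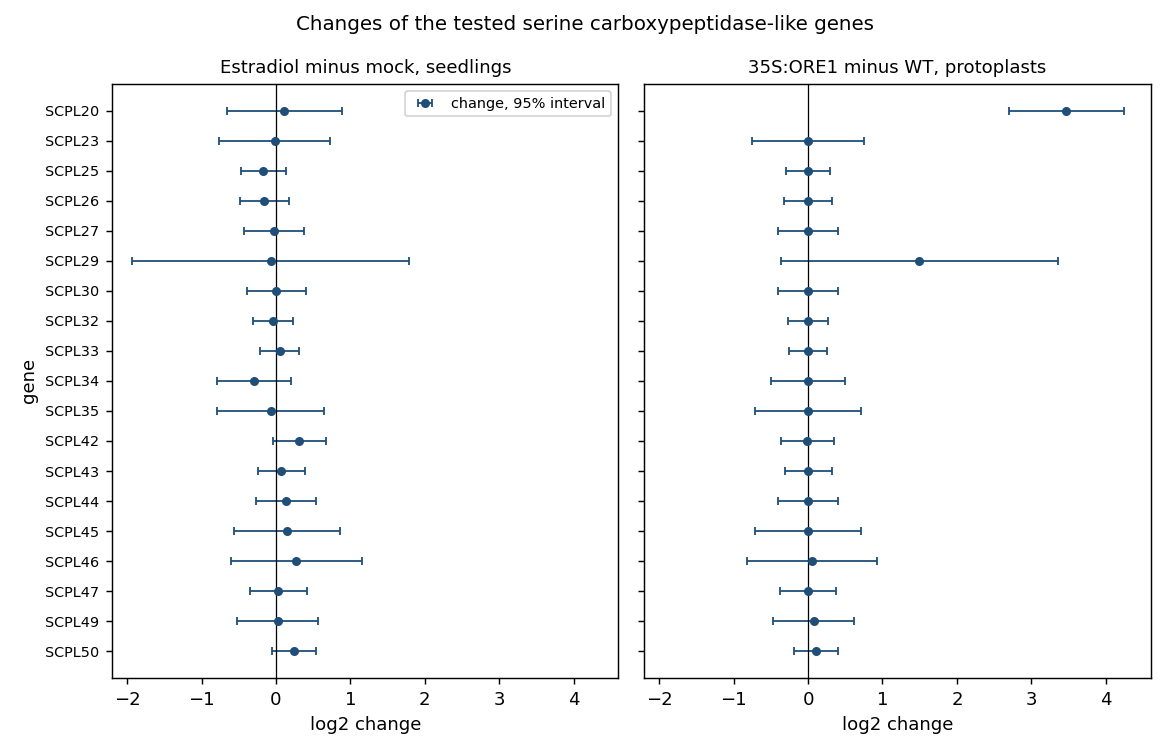
The log2 change (x axis) of the 19 tested genes (y axis), with estradiol minus mock in seedlings on the left and 35S:ORE1 minus WT in protoplasts on the right; points are the differences of 2-array means and bars their 95% intervals from the limma fit to all 8 arrays. In seedlings all points lie between -0.30 and 0.31, and in protoplasts SCPL20, at 3.47, is the gene whose bar does not reach 0. For 13 genes the protoplast points lie at 0 because the deposited values were exactly equal within both numbers. Their bars reflect the spread over all 8 arrays.

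Replicate number separated the seedling values more than estradiol did for many members. For 12 of the 19 the gap between the numbers, averaged over treatments, was larger than the change with estradiol, as it was for 59.1% of all tested probe sets. SCPL35 had the widest gap, 0.68, beside a change of -0.07. SCPL45 (AT1G28110) read 8.07 and 7.18 with estradiol, against 7.68 and 7.29 with mock treatment, a gap of 0.64 beside a change of 0.14. SCPL49 had a gap of 0.42 and a change of 0.02. What the replicate number stands for in seedlings is not given in the sources used here.

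**Figure D4:**
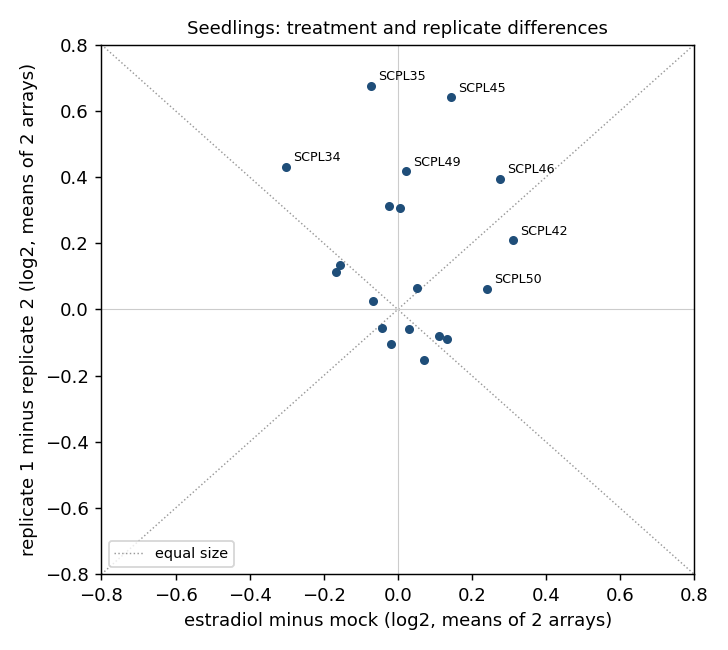
For the 19 tested genes in seedlings, the change with estradiol (x axis, log2, estradiol minus mock, means of 2 arrays) against the gap between replicate numbers (y axis, log2, replicate 1 minus replicate 2, means of 2 arrays); along the dotted diagonals both are of equal size. Of the 19 points, 12 lie nearer the vertical axis, led by SCPL35 (gap 0.68) and SCPL45 (gap 0.64).

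The response of SCPL20 differed between the systems. In seedlings it lay at 7.15 and 7.48 with estradiol, against 7.28 and 7.12 with mock treatment, a change of 0.11 ± 0.32 (SE; 95% interval -0.66 to 0.88). The seedling change minus the protoplast change was -3.36 ± 0.45 (SE; limma adjusted p = 0.0221), and 1 of the 19 tested members passed in this direction, where 1.46% of all tested probe sets did. The call was lost without any 1 of the 4 seedling arrays (adjusted p = 0.131 to 0.160) and without WT protoplast replicate 2 (adjusted p = 0.0722), with differences of -3.15 to -3.52. For SCPL29 the difference was -1.56 ± 1.09 (adjusted p = 0.933).

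The 9 members that did not reach the filter were SCPL16, SCPL18, SCPL21, SCPL22, SCPL28, SCPL31, SCPL38, SCPL40 and SCPL41. Their seedling values ran from 3.83, in SCPL18, to 4.80, in SCPL21, which placed them between the 2.29th and the 20.9th percentile of all probe sets. Group means differed by at most 0.21 in seedlings and 0.01 in protoplasts. Both members with numbers of 1 to 19 fell in this set, SCPL16 at 4.11 and 4.26 with estradiol and 4.00 and 4.18 with mock treatment, and SCPL18 at 3.85 and 3.89, against 3.83 and 3.86. At such values the arrays do not tell a low transcript level from none.

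The remaining tested members, SCPL23, SCPL27, SCPL30, SCPL32, SCPL33 and SCPL47, had differences of -0.043 to 0.053 in seedlings, and their groups overlapped. SCPL23 (AT2G24010) lay at 5.49 and 5.65 with estradiol, against 5.57 and 5.61 with mock treatment. SCPL27 (AT3G07990) read 7.47 and 7.05 with estradiol and 7.39 and 7.18 with mock treatment. SCPL32 (AT1G61130) lay at 5.82 and 5.97, against 5.95 and 5.92 with mock treatment. SCPL30 (AT4G15100) lay at 5.77 and 5.56, against 5.86 and 5.46, and SCPL33 (AT3G17180) at 5.24 and 5.23, against 5.24 and 5.12. SCPL47 (AT5G22980) held values of 5.40 and 5.43 with estradiol and 5.34 and 5.43 with mock treatment.

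By the gene order of RefSeq's TAIR10.1 annotation, 3 pairs of members are close neighbours. SCPL22 and SCPL23 have 0 protein-coding genes between them, as have SCPL28 and SCPL26, and SCPL41 and SCPL42 have 2. In each pair one gene reached log2 5 on all 4 seedling arrays (SCPL23, SCPL26 and SCPL42) and the other on none (SCPL22, SCPL28 and SCPL41). No neighbour pair held a called member, and in protoplasts all 6 genes lay below 3.

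Genes around the family's known roles were counted as well. The lists held 29 sinapate ester, 36 anthocyanin, 38 brassinosteroid and 28 protease names, some of them synonyms. For most names no probe set of their own was found, so the counts and medians that follow cover a small part of each list. For the sinapate ester pathway, which supplies the glucose esters that SCPL acyltransferases use, 6 genes had a probe set of their own and all were tested. In protoplasts 1 fell and 0 rose, where 0.771% of all tested probe sets fell and 3.00% rose. The median was -0.23, against 0 over all tested probe sets. In seedlings 0 passed, with a median of 0.22, against 0.018 over all tested probe sets. The gene that fell was CCOAMT (AT1G67980), a caffeoyl-CoA methyltransferase gene, at 9.96 and 10.15 with 35S:ORE1, against 11.31 and 11.33 in WT (-1.26 ± 0.15, SE; limma adjusted p = 0.00691). The hydroxycinnamoyl transferase gene HCT (-0.71 ± 0.25) and UGT84A3 (-0.45 ± 0.24), which encodes a glucosyltransferase that forms such esters, did not pass. UGT84A1 and UGT84A4, of the same glucosyltransferase group, had equal deposited values in both protoplast groups within each number. None of these values lay above 2.63, so both genes were near the lowest value. A fall could not be measured there, and no rise was seen. Their changes of 0 enter the protoplast median of -0.23.

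Of 5 anthocyanin genes with a probe set 4 were tested, and of 2 brassinosteroid genes both. In either system 0 of these passed, and the largest protoplast change among them was that of BIM1 (-0.77 ± 0.19, SE; limma adjusted p = 0.111). UF3GT, UGT78D1, AT5MAT and BRL1 lay between 2.18 and 2.44 in protoplasts, with equal values in both groups within each number. For these genes the protoplast arrays could not show a fall, and no rise was seen. Among vacuolar proteases of other classes 4 of 5 were tested, and 0 passed in seedlings. In protoplasts, where 3.00% of all tested probe sets rose, 1 of the 4 did. This was ALPHA-VPE, whose product cleaves vacuolar proteins, at 9.23 and 8.84 with 35S:ORE1, against 2.19 and 2.18 in WT, where it lay at the lowest value, so that its change is a bound on the deposited scale (at least 6.85 ± 0.19; adjusted p = 1.14e-05). BETA-VPE (-0.37 ± 0.20), GAMMA-VPE (0.02 ± 0.26) and APA1 (0.19 ± 0.26), an aspartic protease gene, did not pass.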

How the data were processed

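Expression was read from 8 Affymetrix arrays in 4 groups of 2. Each deposited value is the log2 expression of a probe set. GCRMA and RMA are named per the submitters' processing notes, with neither versions nor the arrays each was used on; further steps are not stated. Genes were named through the platform's probe table and RefSeq, and all 28 members matched a locus tag. Control probe sets and those under log2 5 on all or all but 1 array were left out. The other 17388 were fitted with limma 3.58.1 (R 4.3.3; lmFit, then eBayes) on group means with no block, and two-sided p-values were adjusted over all of them after Benjamini and Hochberg. This left 4 residual degrees of freedom plus 2.25 from the prior. The treated group was set over its control in each system, and the protoplast change was taken from the seedling change. The fit was tested on simulated data. The number of arrays limits the precision. Protoplast arrays of 1 number share a lowest value and many equal values, so the number may mark a processing batch, and blocked and within-number values stand beside the results they change. Full values were printed for members past the threshold or with a log2 change of at least 1, filled to 8 a comparison by moderated t; in protoplasts 6 had a difference to rank. Members and lists were chosen with earlier results of these data known. List symbols that name another gene in RefSeq (CHI, BLT, PAP1, PAP2) were left out.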

Additional observations from a re-analysis of the deposited data

Results flagged for a closer look

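The change of SCPL20 differed between the systems by a test of the difference itself. The seedling change, 0.11, minus the protoplast change, 3.47, was -3.36 ± 0.45 (SE; limma adjusted p = 0.0221). Over 14 other settings the difference lay between -3.81 and -2.91 with adjusted p from 0.00567 to 0.160. Tissue, age, time, the way ORE1 was raised and the scale of the values differ between the systems and cannot be told apart.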

How the results depend on the processing

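No member was called in seedlings under any alternative run, including a rise or fall of at least 2-fold within both numbers. In protoplasts SCPL20 was called under 14 of 15 alternatives that keep a test, with changes of 3.02 to 3.92. These 14 all took their spread from seedling and protoplast arrays together, so they are not independent. Leaving out a seedling array kept the change at 3.47. The count of called members was 1 without each array in turn. The count was 0 on the protoplast arrays alone. It was 2 with the replicate number as a block, and 2 by the 2-fold criterion, each time SCPL20 and SCPL29. Same-numbered arrays deviated together (r = 0.656 in seedlings and 0.790 in protoplasts, over 2 numbers each), and the block changed no other call on a member. The count of members that differed between the systems ran from 0 to 1 without each array in turn and was 1 under the other alternatives. Signs of changes that never passed turned in protoplasts with median centring (SCPL50 -0.063, SCPL49 -0.098, SCPL46 -0.12) and with quantile normalization (SCPL46 -0.014). Leaving out 1 array turned SCPL49 (range -0.076 to 0.22), SCPL46 (-0.40 to 0.51) and SCPL42 (-0.068 to 0.048) in protoplasts and SCPL44 (-0.055 to 0.32) and SCPL43 (-0.072 to 0.21) in seedlings. SCPL29 ranged from 0.44 to 2.56 without each array in turn. Choosing the lowest instead of the highest probe set of a gene was not run, as no member has several. Signal near the lowest value limits what protoplasts show for 24 members, and for SCPL29 in WT replicate 2.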
